A study of Mus musculus with 24 samples.

Results

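The comparison described here sets fructose against glucose in the drinking water of fed mice. It rests on the liver arrays of 12 mice, 6 that drank 20% fructose and 6 that drank 20% glucose, out of 24 liver arrays in the study. Both groups were chosen by sample title, and no measured value was used to choose them. All mice were wild-type C57Bl/6J males, 8 weeks old, housed under a cycle of light and dark and fed chow. The sugar was dissolved in tap water and given for 24 hours, so both groups had chow and sugar water together, and livers were taken at ZT16, in the dark phase when mice eat. Each sample was an individual animal. The other groups were 6 fed mice on plain tap water and 6 mice fasted for 24 hours. Each array carried Cy3-labelled RNA from the whole liver of 1 mouse, so hepatocytes and all other liver cells were measured together. All 10 hepatocyte markers, among them Alb, Ttr and Hnf4a, were well above background in all 12 livers.

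Glucose and fructose have the same chemical formula. Glucose is an aldose and fructose a ketose. The liver takes up both, but they enter metabolism at different points. The flow of glucose into glycolysis is limited at phosphofructokinase. Fructose is phosphorylated by ketohexokinase, Khk, and enters below that limiting step. Both sugars are known to feed fat synthesis through the transcription factors ChREBP, encoded by Mlxipl, and SREBP-1c, encoded by Srebf1. The comparison asks whether the liver's gene expression differs by the kind of sugar when the concentration and the time are equal.

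No gene passed the test between the sugars. Of 23966 genes, 0% had an adjusted p under 0.05 (limma, Benjamini-Hochberg), and the lowest adjusted p was 0.0672. An unadjusted p under 0.05 was reached by 1869 genes (7.80%), 942 higher with fructose (3.93%) and 927 lower (3.87%). In the same fit glucose differed from water in 199 genes (0.830%) and fructose from water in 211 (0.880%). The 6 fructose livers lay entirely above or below the 6 glucose livers in 155 genes (0.647%), 95 above (0.396%) and 60 below (0.250%). That split depends on the scaling. When arrays were scaled by their median the counts were 83 above and 29 below, and 892 of 1400 genes with an unadjusted p under 0.05 were higher with fructose.

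The intervals give the size of difference that the data leave possible. All values are log2 signals relative to the 75th percentile of the array, so a difference of 1 is 2-fold. The 95% interval of the difference lay within 1 of zero for 22700 genes (94.7%) and within 0.5 for 17095 genes (71.3%). Among the 20643 genes above background in all 12 livers these shares were 98.3% and 81.4%. For the other genes the data do not bound the difference that tightly, and a p that misses the threshold does not show that the sugars act alike. A difference of more than 2-fold was measured in 43 genes, 19 higher and 24 lower with fructose, and only 17 of them were above background in all 12 livers. Correlations between arrays across genes had a median of 0.992 within fructose, within glucose and between them, while the median with the fasted livers was 0.977 for fructose and 0.976 for glucose. On the first principal component of the 12 livers, which held 14.4% of the variance, fructose livers ran from -10.2 to 33.99 and glucose livers from -28.6 to 22.5. The plot of level and difference shows all genes.

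**Figure D1:**
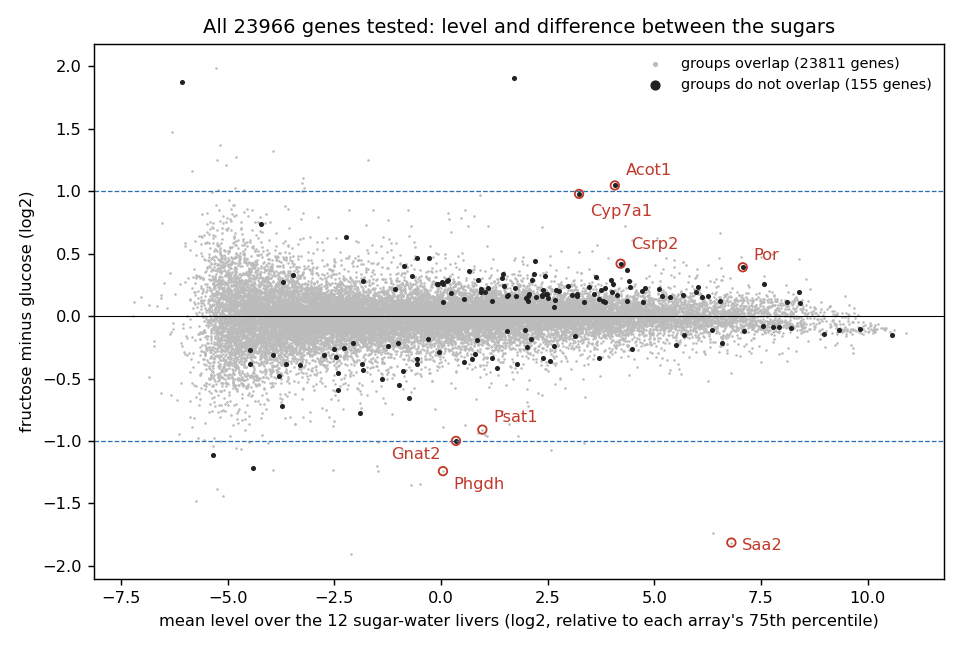
Difference between the sugars (fructose minus glucose, log2) against mean level over the 12 livers (log2, relative to each array's 75th percentile), 1 point per gene. Dark points are the 155 genes whose groups did not overlap, circles mark 8 of the genes named in the text, and dashed lines mark a 2-fold difference. The spread widens toward low levels, and few genes of middle or high level pass the dashed lines.

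The genes with the lowest p-values had modest differences and did not pass the test. Only genes with a gene symbol and well above background in every liver of the higher group were considered. These leading genes are described here by their values, since they were chosen by them. Their comparisons with water reuse the same sugar livers. Choosing by the difference between the sugars thus favours genes that differ from water with a single sugar. Such p-values against water do not show that the sugars differ, and this also holds for list members named below for a low p. Csrp2, which encodes a LIM-domain protein, lay between 4.31 and 4.58 in the fructose livers with a median of 4.38. In the glucose livers it lay between 3.89 and 4.15 with a median of 4.02. All 6 fructose livers were above all 6 glucose livers, and the difference was 0.42 ± 0.07 (SE), 1.34-fold, with an adjusted p of 0.0672. The water livers had a mean of 4.20, between the sugars, and the fasted livers a mean of 4.93. The probe of Csrp2 lies on mm9 at chromosome 10 from 110376366 to 110376425.

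Por, the reductase that passes electrons to the microsomal cytochrome P450 enzymes, lay between 7.01 and 7.57 with fructose (median 7.23) and between 6.72 and 6.96 with glucose (median 6.89). Its groups did not overlap, and the difference was 0.39 ± 0.10 (SE; adjusted p = 0.427). Against water, Por fell by 0.50 with glucose (adjusted p = 0.0124), and with fructose its difference was -0.11 (adjusted p = 0.645). Gnmt, which methylates glycine and so uses up S-adenosylmethionine, lay between 8.32 and 8.93 with fructose and between 7.98 and 8.44 with glucose, so the groups overlapped. Its difference was 0.46 ± 0.11. It too fell with glucose against water, by 0.51 (adjusted p = 0.0196), while fructose differed from water by -0.05 (adjusted p = 0.883). The cytochrome P450 gene Cyp2c50 had a difference of 0.47 ± 0.12 between the sugars. It fell by 0.73 with glucose against water (adjusted p = 0.0019), and its difference with fructose was -0.26 (adjusted p = 0.27). The remaining genes with the lowest p-values on the higher side had smaller differences, apart from the kinase gene Pkn3 (0.60 ± 0.15). They were Klhdc3, which encodes a part of a ubiquitin ligase (0.28), Oaz1, the antizyme that limits polyamine synthesis (0.24), Chpt1, an enzyme of phosphatidylcholine synthesis (0.26), Ykt6 of vesicle fusion (0.22), the coagulation gene F13b (0.20), the cell cycle brake Rb1 (0.19) and the mitochondrial import gene Timm22 (0.18). In 8 of these 12 genes the groups did not overlap, beside 0.647% of all genes, and a choice by low p favours this. Their adjusted p-values ran from 0.0672 to 0.427.

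On the lower side Gnat2, which encodes a transducin subunit known from cone photoreceptors, lay between -0.62 and 0.19 with fructose (median -0.09). With glucose it lay between 0.49 and 1.23 (median 0.87). The groups did not overlap, and the difference was -0.999 ± 0.17 (SE; adjusted p = 0.0998). The water livers had a mean of 0.30 and the fasted livers a mean of -2.70. Its probe lies on mm9 at chromosome 3 from 107904135 to 107904194. Tle3, a corepressor, had a difference of -0.57 ± 0.11 with overlapping groups, and its 4 probes ran from -0.63 to -0.14. The phosphatase gene Ptpn3 had a difference of -0.36 ± 0.07 and did not overlap. Ptpn3 fell against water with fructose, by 0.29 (adjusted p = 0.0452), and with glucose its difference was 0.07 (adjusted p = 0.784). Cox6a2, the muscle form of a cytochrome oxidase subunit, had a difference of -0.77 ± 0.15. It rose with glucose against water by 1.06 (adjusted p = 0.000799), and its difference with fructose was 0.28 (adjusted p = 0.379).

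The other genes with the lowest p-values on the lower side took in 2 that belong to amino acid use. Gars, the glycyl-tRNA synthetase, lay between 5.27 and 5.50 with fructose and between 5.52 and 5.78 with glucose, a difference of -0.23 ± 0.05 without overlap. Gars rose with glucose against water by 0.35 (adjusted p = 0.00145), and its difference with fructose was 0.12 (adjusted p = 0.27). Psph, the last enzyme of serine synthesis, is described with the serine genes below. The rest were Atp8b1, a phospholipid flippase of the bile canaliculus (-0.34), Ccar2 (-0.28), Disp1, known from Hedgehog release (-0.48), Sspo (-1.01), Bach2os, named as antisense to Bach2 (-0.59), and the transcript Stamos (-0.60). In 7 of the 12 the groups did not overlap, beside 0.647% of all genes, and a choice by low p favours this. Adjusted p-values ran from 0.0998 to 0.427. All 24 leading genes kept their sign in each of the 3 array slides, which held 2 arrays of every group, although a choice by low p favours such genes. The plot of genes with the lowest p-values shows 8 of them in every mouse.

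**Figure D2:**
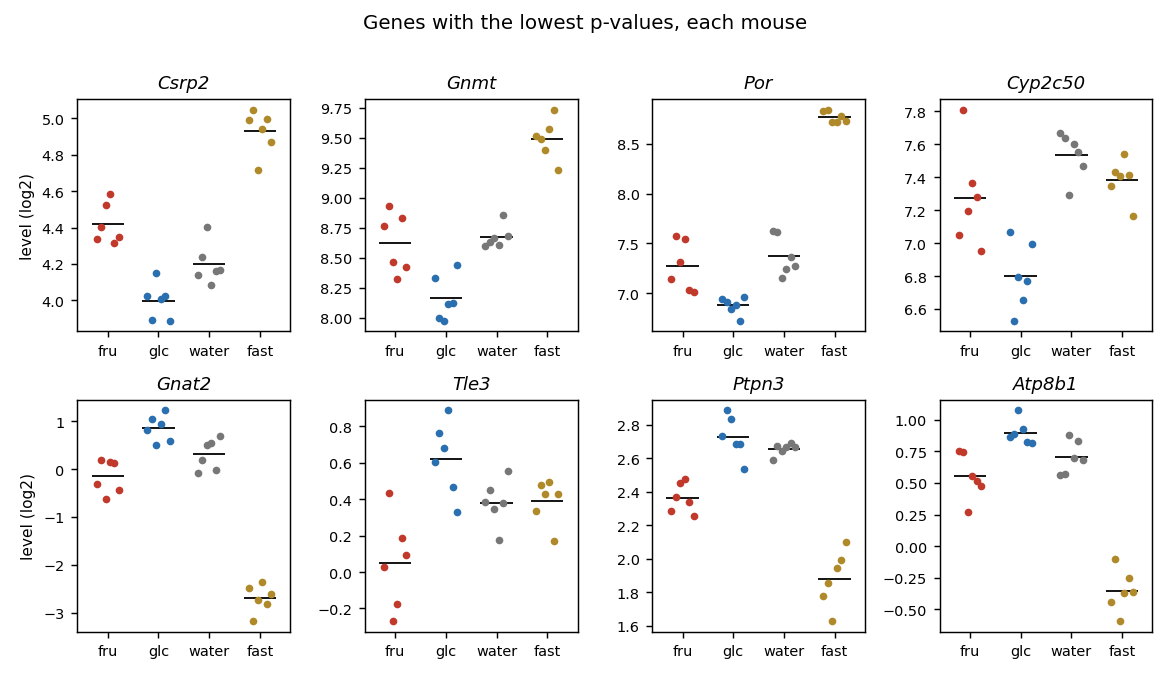
Level (log2, relative to each array's 75th percentile) of 8 of the genes with the lowest p-values, 1 point per mouse, for fructose (fru), glucose (glc), water and fasting (fast). Bars are group means of 6 mice. The genes in the upper row were higher with fructose than with glucose, by 0.39 to 0.47, and those in the lower row were lower, by 0.34 to 0.999. No gene passed the adjusted threshold.

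A few larger differences had wide errors. Cyp26b1, which breaks down retinoic acid, was chosen for mention after its values were seen. It lay between 2.43 and 2.99 in the fructose livers and between -1.67 and 2.12 in the glucose livers, so the groups did not overlap, while water livers ran from 0.45 to 3.51. The difference was 1.91 ± 0.54 (SE; adjusted p = 0.447), and the spread lay in the glucose and water livers. Within slides 1, 2 and 3 it was 1.65, 3.44 and 0.63.

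No gene that takes up or handles fructose passed the test between the sugars, and the interval of the difference lay within 0.5 of zero for 10 of 12. Of these 12 measured genes 3 were higher and 9 lower with fructose, none with an unadjusted p under 0.05, and their median difference was -0.06 against -0.00127 over all genes tested. Khk lay between 9.08 and 9.40 with fructose (median 9.13) and between 9.01 and 9.40 with glucose (median 9.19). The groups overlapped throughout, and the 95% interval of the difference ran from -0.18 to 0.13. Khk rose against water with both sugars, by 0.48 with glucose (adjusted p = 0.00156) and by 0.45 with fructose (adjusted p = 0.00514). These contrasts share the water livers. Tkfc, the triokinase that phosphorylates glyceraldehyde from fructose, differed by -0.15 (interval from -0.42 to 0.13). Tkfc rose with glucose against water by 0.61 (adjusted p = 0.0267), and with fructose its difference was 0.46 (adjusted p = 0.0922). The transporter Slc2a5, specific for fructose, differed by 0.19 (from -0.21 to 0.59), and Slc2a2, which carries both sugars, by 0.04 (from -0.18 to 0.26). For Khk, Tkfc and Slc2a2 the interval lay within 0.5 of zero.

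Gckr, which encodes a regulatory protein of liver glucose metabolism, lay between 7.01 and 7.25 with fructose and between 7.23 and 7.50 with glucose, so the groups overlapped narrowly. Its difference was -0.19 (from -0.33 to -0.06; adjusted p = 0.496). Gckr rose with glucose against water by 0.33 (adjusted p = 0.0154), and with fructose its difference was 0.14 (adjusted p = 0.312). Over the 18 glycolysis genes 13 were higher with fructose and 5 lower, with a median of 0.08. An unadjusted p under 0.05 was reached by 2 on the higher side (11.1%, beside 3.93% of all genes) and 1 on the lower (5.56%, beside 3.87%). These were Gckr, the aldolase gene Aldoa (0.20) and the phosphofructokinase gene Pfkm (0.19), both of them forms more abundant in muscle than in liver. Pklr, the liver pyruvate kinase and a target of ChREBP, differed by -0.29 (from -0.66 to 0.08). It rose with glucose against water by 0.98 (adjusted p = 0.0081), and with fructose its difference was 0.69 (adjusted p = 0.0675).

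**Figure D3:**
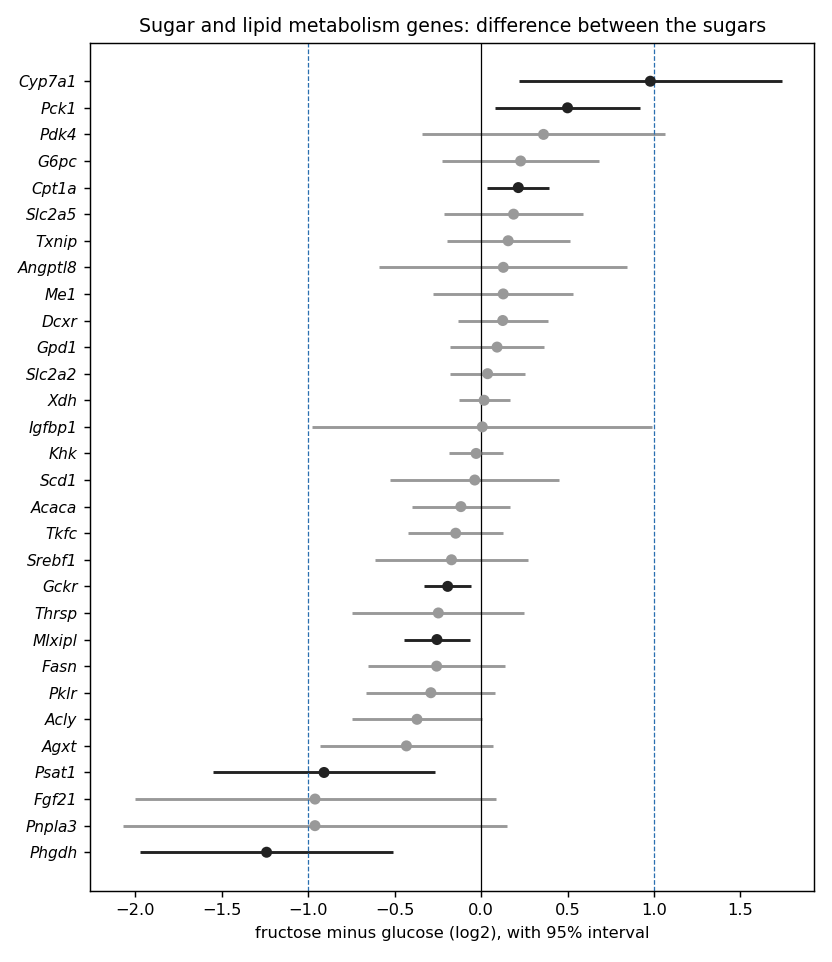
Difference between the sugars (fructose minus glucose, log2) for 30 genes of sugar, lipid and liver hormone metabolism. Points are limma estimates from 6 mice a group and lines their 95% intervals. Dark lines do not cross zero, which holds for 7 genes, and dashed lines mark a 2-fold difference. For 24 genes the whole interval lies between the dashed lines.

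No gene of the carbohydrate response or of fat synthesis passed the test between the sugars. The interval of the difference lay within 0.5 of zero for only 6 of the 14 carbohydrate response genes and 6 of the 18 fatty acid synthesis genes, so larger differences remain possible for the others. Mlxipl lay between 6.93 and 7.36 with fructose and between 7.24 and 7.61 with glucose, a difference of -0.26 (from -0.44 to -0.07; adjusted p = 0.516), and its 3 probes ran from -0.26 to -0.12. Mlxip, which encodes the related factor MondoA, went the other way with a difference of 0.42 ± 0.13 (adjusted p = 0.474). Txnip, a target of both, differed by 0.16 (from -0.20 to 0.51). Of the 14 genes of the list 8 were higher and 6 lower, with a median of 0.05. Srebf1 differed by -0.17 (from -0.61 to 0.27).

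Of 18 fatty acid synthesis genes 7 were higher with fructose and 11 lower, none with an unadjusted p under 0.05, and the median was -0.05. Per mouse, the mean deviation of these 18 genes from their average over the 12 livers ran from -0.47 to 0.44 with fructose and from -0.20 to 0.25 with glucose. The range of the fructose livers thus took in all the glucose livers. Fasn, fatty acid synthase, differed by -0.26 (from -0.65 to 0.14), and Acly, which supplies cytosolic acetyl-CoA, by -0.37 (from -0.75 to 0.00495). Acaca, acetyl-CoA carboxylase, differed by -0.12 (from -0.40 to 0.17), the desaturase gene Scd1 by -0.04 (from -0.53 to 0.45) and malic enzyme, Me1, by 0.13 (from -0.28 to 0.53). Against water Me1 rose by 1.30 with glucose (adjusted p = 0.00103) and by 1.43 with fructose (adjusted p = 0.00072). Acaca rose by 0.85 (adjusted p = 0.00224) and 0.74 (adjusted p = 0.0131), and these pairs share their water livers. Thrsp, which promotes lipid synthesis, differed by -0.25 (from -0.75 to 0.25). The lipase gene Pnpla3 differed by -0.96 (from -2.07 to 0.15) with the brighter of its probes, the other giving -0.15. It was -2.98 within slide 1, while slides 2 and 3 gave 0.10 and -0.00328.

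Gpam, which makes the first committed step of triglyceride synthesis, had the lowest p among 20 triglyceride and lipid droplet genes. It lay between 5.60 and 6.31 with fructose (median 6.01) and between 5.97 and 7.03 with glucose (median 6.58). The difference was -0.52 ± 0.15 (adjusted p = 0.454), its probes ran from -0.52 to -0.51, and within slides 1, 2 and 3 it was -0.56, -0.47 and -0.52. Gpam rose with glucose against water by 0.66 (adjusted p = 0.0396), and with fructose its difference was 0.14 (adjusted p = 0.718). Pnpla2, the lipase that starts the breakdown of stored triglyceride, was higher in all 6 fructose livers (from 3.66 to 4.00) than in any glucose liver (from 3.30 to 3.64), a difference of 0.31 ± 0.11 (adjusted p = 0.501). Lpin2, a phosphatidate phosphatase, differed by 0.37 (from -0.00447 to 0.75), and its 6 probes ran from -0.03 to 0.42. Gpd1, which makes glycerol phosphate, differed by 0.09 (from -0.18 to 0.36). Of 21 genes of cholesterol synthesis and uptake 7 were higher and 14 lower with a median of -0.02.

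Among genes of glucose release, Pck1, which commits oxaloacetate to gluconeogenesis, lay between 7.42 and 8.33 with fructose (median 8.07) and between 6.74 and 8.20 with glucose (median 7.53). The groups overlapped, and the difference was 0.50 ± 0.20 (from 0.08 to 0.92; adjusted p = 0.577). It was 1.30 within slide 1, 0.11 within slide 2 and 0.09 within slide 3. Got1, a cytosolic aspartate transaminase, differed by 0.63 ± 0.19 (adjusted p = 0.474), and its 3 probes ran from 0.63 to 0.81. Got1 fell with glucose against water by 0.88 (adjusted p = 0.0257), and with fructose its difference was -0.25 (adjusted p = 0.558). G6pc, which frees glucose, differed by 0.23 (from -0.23 to 0.68). The mitochondrial form Pck2 went the other way, by -0.35 ± 0.11, and belongs with the stress genes below. Of 14 genes 8 were higher and 6 lower, with a median of 0.05. An unadjusted p under 0.05 was reached by 3 higher (21.4%) and 1 lower (7.14%), beside 3.93% and 3.87% of all genes. The list shares 2 genes, Pck1 and Sds, with the markers of periportal hepatocytes. Its 12 other genes had a median of 0.00196, and 1 of them was higher with such a p. The part of the periportal cells in these values was not tested.

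The glycogen list had 6 genes higher and 7 lower of 13, with Gbe1, the branching enzyme, at -0.22, Pygl, the liver phosphorylase, at -0.13 and Stbd1, a glycogen anchor, at 0.22. Only in Stbd1 of these 13 genes did the groups not overlap, beside 0.647% of all genes. In the citric acid cycle list 13 of 16 genes were higher with fructose, with a median of 0.06, while citrate synthase, Cs, was lower by its brighter probe (-0.21) and 0.09 higher by the other. In the pentose phosphate and xylulose list 6 of 10 were higher, none with an unadjusted p under 0.05. Dcxr, the xylulose reductase, differed by 0.13 (from -0.14 to 0.39) and fell against water with both sugars, by 0.87 with glucose (adjusted p = 0.00076) and by 0.75 with fructose (adjusted p = 0.0058).

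Fructose breakdown in liver is known to use up ATP and to raise urate. Of 13 genes of purine breakdown and urate 12 were higher with fructose and 1 lower, with differences between -0.11 and 0.26 and a median of 0.04. All 13 intervals lay within 0.5 of zero. Xdh, the enzyme that makes urate, lay between 3.35 and 3.73 with fructose and between 3.37 and 3.58 with glucose, an interval of the difference from -0.13 to 0.17. Ada, adenosine deaminase, was the only member with an unadjusted p under 0.05, at 0.26 ± 0.09 without overlap (adjusted p = 0.482). That is 7.69% of the list, beside 3.93% of all genes. Agxt, which removes glyoxylate, differed by -0.43 (from -0.93 to 0.07), and it fell against water with both sugars, by 1.23 with glucose (adjusted p = 0.014) and by 1.66 with fructose (adjusted p = 0.00148).

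Serine synthesis makes serine from an intermediate of glycolysis, and its genes are known targets of ATF4, a transcription factor of amino acid shortage and stress. All 3 genes of the path were lower with fructose than with glucose, without passing the test. Phgdh, the first enzyme, lay between -1.80 and 0.41 with fructose (median -0.25) and between -0.30 and 2.13 with glucose (median 0.49). The groups overlapped, and the difference was -1.24 ± 0.35 (from -1.97 to -0.51; adjusted p = 0.447), 2.36-fold. Psat1, the second enzyme, lay between -0.79 and 1.19 with fructose and between 0.64 and 2.19 with glucose, a difference of -0.91 ± 0.31 (adjusted p = 0.495). Psph, the third, lay between 1.41 and 1.72 with fructose and between 1.85 and 2.26 with glucose. Psph did not overlap, and its difference was -0.38 ± 0.10 (adjusted p = 0.427).

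The slides differed for the first 2 of these genes. Within slides 1, 2 and 3 Phgdh differed by -1.45, -0.03 and -2.24, and Psat1 by -1.12, 0.02 and -1.62. Against water Phgdh rose by 3.36 with glucose (adjusted p = 1.1e-05) and by 2.12 with fructose (adjusted p = 0.00523). Psat1 rose by 3.63 and 2.72, and Psph by 0.74 with glucose (adjusted p = 0.000187) while its difference with fructose was 0.35 (adjusted p = 0.0749). Over the 14 serine and one-carbon genes 5 were higher with fructose and 9 lower, and the median was -0.02. An unadjusted p under 0.05 was reached by 1 on the higher side (7.14%, beside 3.93% of all genes) and by 4 on the lower (28.6%, beside 3.87%). The lower ones with such a p were Phgdh, Psat1, Psph and the folate enzyme gene Mthfd2 (-0.55), and the higher one was Gnmt, which uses glycine up rather than making it.

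In the ATF4 and amino acid stress list 12 of 17 measured genes were lower with fructose and 5 higher, with a median of -0.16. On the lower side 4 (23.5%) had an unadjusted p under 0.05, beside 3.87% of all genes. On the higher side 1 (5.88%) did, beside 3.93%. The groups did not overlap in 1 lower and 1 higher gene of the list, beside 0.250% and 0.396% of all genes. Nupr1, a stress-induced chromatin protein, lay between 0.40 and 1.64 with fructose (median 1.07) and between 1.34 and 2.36 with glucose (median 1.67). Its difference was -0.76 ± 0.21 (adjusted p = 0.441) by its brighter probe, and its other probe gave 0.15. Atf4 itself lay between 6.33 and 6.58 with fructose and between 6.61 and 6.81 with glucose, without overlap, a difference of -0.22 ± 0.10 (adjusted p = 0.628), while its other probe gave 0.04. Atf5, a factor that ATF4 induces, differed by -0.36 ± 0.10, and the arginine transporter gene Slc7a1 by -0.39 ± 0.15. Pck2 and Atf5 rose against water with both sugars. For Atf5 this was 1.16 with glucose (adjusted p = 1.33e-06) and 0.80 with fructose (adjusted p = 0.000408). For Pck2 it was 0.90 (adjusted p = 0.000101) and 0.55 (adjusted p = 0.0209).

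Per mouse, the mean deviation of the 17 genes ran from -0.28 to -0.03 with fructose (median -0.08) and from -0.14 to 0.42 with glucose (median 0.06). All 6 fructose livers lay below the glucose median, and the groups overlapped. The water livers lay from -0.53 to -0.23 and overlapped the fructose livers through 1 mouse. The list median was 0.07 within slide 1 against -0.20 and -0.35 within slides 2 and 3. Fgf21, a liver hormone that sugars and fasting raise, lay between -0.43 and 1.75 with fructose (median 0.40) and between 0.41 and 2.56 with glucose (median 1.43). The difference was -0.96 ± 0.50 with an interval from -2.01 to 0.08, which as a ratio runs from 0.249 to 1.06 times the level with glucose. Within slides 1, 2 and 3 it was 0.11, -0.55 and -2.44, so its sign changed between slides. Against water Fgf21 rose by 4.41 with glucose (adjusted p = 2.41e-05) and by 3.45 with fructose (adjusted p = 0.00148).

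**Figure D4:**
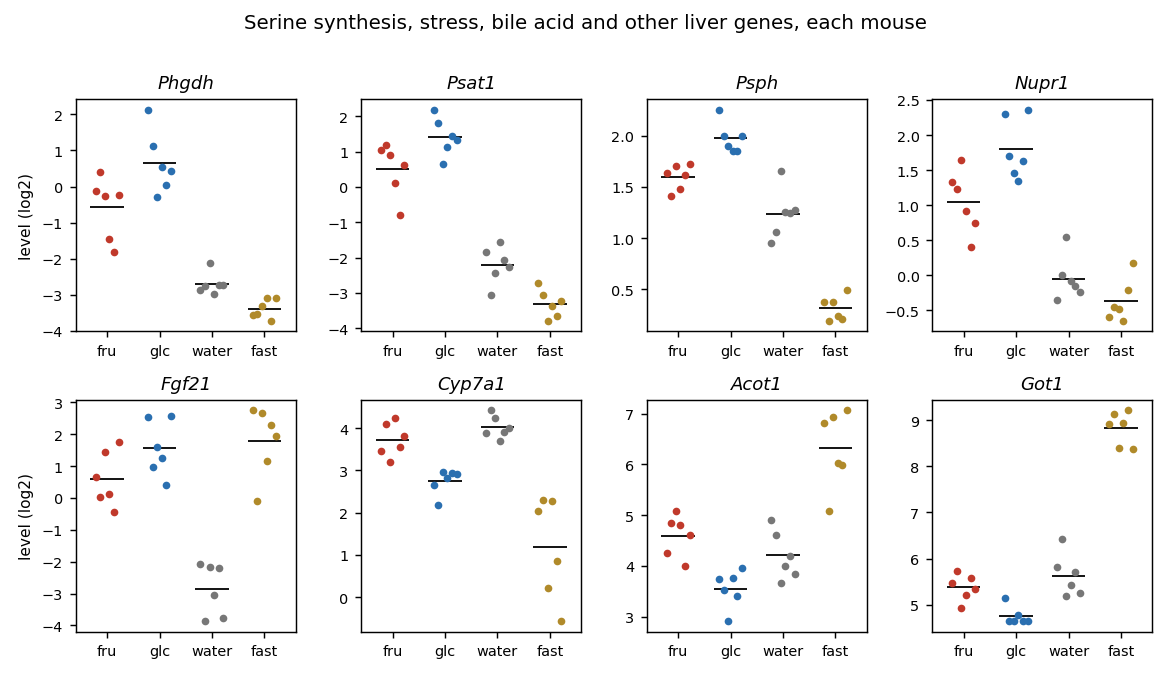
Level (log2, relative to each array's 75th percentile) of the serine synthesis genes Phgdh, Psat1 and Psph, the stress gene Nupr1, the hormone gene Fgf21, the bile acid enzyme Cyp7a1, the thioesterase Acot1 and the transaminase Got1, 1 point per mouse. Groups are fructose (fru), glucose (glc), water and fasting (fast), and bars are means of 6 mice. Fructose and glucose groups do not overlap for Psph, Cyp7a1 and Acot1.

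For this list, promoters show where such factors could act. A composite site for C/EBP and ATF factors, searched as TGATGNAA on both strands within the windows of RefSeq promoters (GRCm38.p6) from upstream of the start to just past it, matched 4.51% of 27025 genes. It matched 6 of the 17 list genes with a promoter entry, and 5 of these 6 were measured. Of those, Nupr1, Asns, Chac1 and Trib3 were lower with fructose, and Vldlr, at 0.00116, was not. Within slides 1, 2 and 3 Asns differed by -0.81, 0.06 and -1.31. The stretches below hold the match of Nupr1 and of Asns, the asparagine synthetase gene (difference -0.68, from -1.59 to 0.22), shown because their differences were among the larger of the list. Capitals mark the bases of the site.
Nupr1, GRCm38.p6 chr7:126625555-126625598, minus strand: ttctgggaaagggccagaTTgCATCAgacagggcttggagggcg
Asns, GRCm38.p6 chr6:7693210-7693250, minus strand: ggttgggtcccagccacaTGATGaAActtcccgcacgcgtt
A match of letters describes the sequence and is no measure of binding.

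Genes of amino acid breakdown and the urea cycle were higher with fructose than with glucose in 17 of 22 cases, with a median of 0.11. An unadjusted p under 0.05 was reached by 5 genes, all higher, 22.7% of the list beside 3.93% of all genes. Cps1, which makes carbamoyl phosphate for the urea cycle, lay between 6.48 and 7.01 with fructose and between 6.33 and 6.54 with glucose, a difference of 0.29 ± 0.10 (adjusted p = 0.493). Gls2, the liver glutaminase, differed by 0.23 ± 0.10, and Tdo2, which opens the tryptophan ring, by 0.20 ± 0.08. The list median was 0.11, 0.14 and 0.10 within slides 1, 2 and 3, and it was 0.06 without fructose mouse 2. Against water Cps1 fell by 0.51 with glucose (adjusted p = 0.0106), and its difference with fructose was -0.22 (adjusted p = 0.254). Gls2 fell by 0.46 with glucose (adjusted p = 0.02), with a difference of -0.23 with fructose (adjusted p = 0.229). Of the 22 genes 9 were called with glucose against water, where 0.830% of all genes were, and 3 with fructose, where 0.880% were. The difference between the sugars passed the test for none of them, so these counts do not show that the sugars differ. Of the 22 genes 7 are also markers of periportal hepatocytes, which had 4 of 11 genes higher with an unadjusted p under 0.05 (36.4%). The 15 others had a median of 0.10, with 2 such genes. The part of the periportal cells in the urea cycle values was not tested.

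Bile acid and drug metabolism genes were on the same side. Cyp7a1, which catalyses the first and limiting step from cholesterol to bile acids, lay between 3.19 and 4.23 with fructose (median 3.68) and between 2.18 and 2.97 with glucose (median 2.86). Every fructose liver was above every glucose liver. The difference was 0.98 ± 0.37 (from 0.22 to 1.74; adjusted p = 0.55), 1.97-fold, and its 2 probes gave 0.98 and 1.13. It was 1.15, 1.06 and 0.72 within slides 1, 2 and 3. The water livers had a mean of 4.03 and differed from glucose without passing the test, with glucose 1.28 below water (adjusted p = 0.107). Cyp27a1, which starts the other route to bile acids, differed by 0.23 ± 0.11. Of the 13 bile acid genes 9 were higher with fructose and 4 lower, with a median of 0.12. Of these, 3 (23.1%), all higher, had an unadjusted p under 0.05, beside 3.93% of all genes. Unlike Cyp7a1, the list was not higher in every slide, with medians of 0.31, 0.09 and -0.00653 within slides 1, 2 and 3. The probe of Cyp7a1 lies on mm9 at chromosome 4 from 6193456 to 6193515.

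Of 13 xenobiotic genes 9 were higher with fructose and 4 lower, with a median of 0.19. In 5 (38.5%), all higher, the unadjusted p was under 0.05, beside 3.93% of all genes. Besides Por these were Cyp2c29 (0.26 ± 0.07, without overlap), Cyp2c55 (0.85 ± 0.26), Cyp3a11 (0.41 ± 0.15) and the carboxylesterase gene Ces2a (0.19 ± 0.08). Every fructose liver had more Cyp2c29 signal than any glucose liver. Per mouse, the mean deviation of the list ran from -0.13 to 0.26 with fructose and from -0.36 to 0.08 with glucose and water livers from 0.11 to 0.60, so neighbouring groups overlapped. The list medians were 0.41, 0.09 and -0.03 within slides 1, 2 and 3. Members of the Cyp2c family are close in sequence, and a probe may respond to more than 1 of them. Pericentral hepatocytes are rich in such enzymes, and 3 of their 11 markers were higher with an unadjusted p under 0.05 (27.3%). The xenobiotic list holds 2 of these markers, and its 11 other genes had a median of 0.19. The part of the pericentral cells in these values was not tested. Cyp3a11 fell with glucose against water by 0.64 (adjusted p = 0.0421), and with fructose its difference was -0.23 (adjusted p = 0.485).

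PPARA is a nuclear receptor that switches on fat burning. Of its 17 listed targets 12 were higher with fructose and 5 lower, with a median of 0.25. On the higher side 1 (5.88%) had an unadjusted p under 0.05, beside 3.93% of all genes. The median was 0.48, 0.08 and 0.05 within slides 1, 2 and 3, and 0.10 without fructose mouse 4. Acot1, a thioesterase that frees fatty acids from CoA, lay between 3.99 and 5.08 with fructose (median 4.70) and between 2.91 and 3.97 with glucose (median 3.63). The groups did not overlap, and the difference was 1.05 ± 0.29 (from 0.44 to 1.65; adjusted p = 0.441), 2.07-fold. Within slides 1, 2 and 3 it was 1.48, 1.39 and 0.27. Its close relatives Acot2 and Acot3, which a probe may not tell apart, differed by 0.64 ± 0.40 and 0.73 ± 0.63. Angptl4, a lipase inhibitor, differed by 0.39 (from -0.01 to 0.78). Cpt1a, the carnitine transferase of fatty acid oxidation, is not among the 17 listed targets and differed by 0.22 (from 0.04 to 0.39). Pdk4, a brake on pyruvate oxidation, differed by 0.36 (from -0.34 to 1.06). Within slides 1, 2 and 3 Angptl4 differed by 1.29, -0.21 and 0.08, and Pdk4 by 0.71, 1.17 and -0.80. Over the 17 genes of fatty acid oxidation and ketone bodies 10 were higher and 7 lower with a median of 0.02. Of these, 1 (5.88%), on the higher side, had an unadjusted p under 0.05, beside 3.93% of all genes.

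Chaperones of the endoplasmic reticulum fold secreted proteins and are induced by the unfolded protein response. All 19 genes of this list were lower with fructose than with glucose, by 0.08 to 0.48, with a median of -0.27 against -0.00127 over all genes. An unadjusted p under 0.05 was reached by 8 of the 19 (42.1%), beside 3.87% of all genes lower with fructose. No single gene passed the test. Pdia4, a disulfide isomerase, lay between 2.94 and 3.39 with fructose (median 3.10) and between 3.32 and 3.86 with glucose (median 3.52), a difference of -0.39 ± 0.13 (adjusted p = 0.482). Hspa5, the main chaperone of the compartment (BiP), lay between 7.49 and 8.08 with fructose and between 7.79 and 8.44 with glucose, a difference of -0.30 ± 0.14 (adjusted p = 0.621). Hyou1, a chaperone of the same compartment, differed by -0.36 ± 0.14 and Sel1l, which serves the removal of misfolded proteins, by -0.29 ± 0.11. The groups of these 4 genes overlapped.

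Per mouse, the mean deviation of the 19 genes ran from -0.35 to 0.13 with fructose (median -0.17) and from -0.07 to 0.40 with glucose (median 0.07), so the groups overlapped. Water livers ran from -0.00206 to 0.56 and fasted livers from -1.39 to -1.14. The genes of the list move together, so their number is not a number of independent observations. The list median was -0.51, -0.16 and -0.17 within slides 1, 2 and 3, and it stayed between -0.31 and -0.19 with any 1 of the 12 mice left out. Against water the list median was -0.21 with glucose and -0.43 with fructose, with 0 and 5 genes called, the latter beside 0.380% of all genes lower with fructose than on water. Among the called were Pdia4 (-0.54 with fructose, adjusted p = 0.0452, and -0.15 with glucose, adjusted p = 0.73) and Sel1l (-0.51 with fructose, adjusted p = 0.0337, and -0.22 with glucose, adjusted p = 0.469).

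The endoplasmic reticulum stress response element, searched on both strands as CCAAT, any 9 bases and CCACG, is rare, with a match in the promoter window of 37 of 27025 genes (0.137%). It matched 7 of the 17 list genes with a promoter entry, and these had a median difference of -0.27 between the sugars. The 10 others had a median of -0.21. Hspa5 differed by -0.30, Hsp90b1 by -0.27, Pdia6 by -0.28 and Creld2 by -0.27. The other carriers were the calreticulin gene Calr at -0.28, the calnexin gene Canx at -0.08 and the cochaperone gene Dnajc3 at -0.14. The stretches of the first 4 are shown as examples, chosen after their values were seen. Capitals mark the fixed bases of the element, and the lower-case bases between them are its open spacer.
Hspa5, GRCm38.p6 chr2:34772007-34772061, plus strand: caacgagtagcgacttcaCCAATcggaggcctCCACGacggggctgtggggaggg
Hsp90b1, GRCm38.p6 chr10:86705515-86705569, minus strand: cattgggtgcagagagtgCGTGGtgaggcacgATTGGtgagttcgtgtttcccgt
Pdia6, GRCm38.p6 chr12:17266473-17266527, plus strand: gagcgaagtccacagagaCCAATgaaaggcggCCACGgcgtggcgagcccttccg
Creld2, GRCm38.p6 chr15:88819502-88819556, plus strand: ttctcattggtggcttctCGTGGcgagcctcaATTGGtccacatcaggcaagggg
Hsp90b1 and Creld2 carry the element on the strand opposite to the gene. Genes of the list without these letters in the window were also lower with fructose.

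Interferon-induced genes act against viruses. All 15 interferon genes were lower, by 0.04 to 0.59, with a median of -0.30, and 3 (20.0%) had an unadjusted p under 0.05, beside 3.87% of all genes. Mx1, an antiviral GTPase, lay between -3.11 and -2.46 with fructose and between -2.42 and -1.80 with glucose, a difference of -0.59 ± 0.24 (adjusted p = 0.572) without overlap. Oas1a differed by -0.36 ± 0.15 and Mx2 by -0.35 ± 0.16. The list median was -0.82 within slide 1, -0.08 within slide 2 and 0.03 within slide 3. The interferon-stimulated response element, searched on both strands as GAAA, any 2 bases and GAAA, matched 3.99% of all genes and 8 of the 11 list genes with a promoter entry. Isg15 (-0.31, from -0.67 to 0.04) and Ifit1 (-0.43, from -0.93 to 0.06) are shown as examples near the start, with the fixed bases in capitals.
Isg15, GRCm38.p6 chr4:156200857-156200902, minus strand: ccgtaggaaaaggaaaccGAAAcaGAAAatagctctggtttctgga
Ifit1, GRCm38.p6 chr19:34640786-34640831, plus strand: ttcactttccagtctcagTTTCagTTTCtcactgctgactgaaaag

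All 12 Kupffer and myeloid markers were lower with fructose, by 0.11 to 0.58, with a median of -0.22, and 5 (41.7%) had an unadjusted p under 0.05, beside 3.87% of all genes. In whole liver RNA, fewer cells of a type and less RNA per cell cannot be told apart. Marco, a scavenger receptor, differed by -0.58 ± 0.21, Adgre1, which encodes F4/80, by -0.32 ± 0.12 and Timd4 by -0.33 ± 0.14. All 6 fructose livers lay below the glucose median of the list, and the groups overlapped, with fructose livers from -0.45 to 0.05 and glucose livers from -0.27 to 0.46. The list median was -0.61, -0.20 and 0.12 within slides 1, 2 and 3. The summed level of the 12 markers (log2) ran from 6.78 to 7.23 with fructose, from 6.87 to 7.64 with glucose and from 7.01 to 7.47 on water. None of the 12 markers was below background throughout. The part of these cells in the interferon, acute phase and chaperone values was not tested.

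Of 16 acute phase genes, which hepatocytes secrete in inflammation, 12 were lower with fructose and 4 higher, with a median of -0.16. That median was -0.09 without fructose mouse 4 and -0.26 without glucose mouse 6. Haptoglobin, Hp, had a median of 9.49 with fructose and 9.87 with glucose in overlapping groups, a difference of -0.30 ± 0.11 (adjusted p = 0.55), and the fibrinogen gene Fgg differed by -0.15 ± 0.07. The serum amyloid genes had the largest differences with the widest errors. Saa2 lay between 4.72 and 7.11 with fructose and between 4.95 and 9.80 with glucose, a difference of -1.81 ± 1.00 (from -3.88 to 0.25). Saa1, its close relative, differed by -1.74 ± 1.00. Per mouse, the mean deviation of the list ran from -0.58 to 0.20 with fructose and from -0.40 to 0.80 with glucose, and from -0.39 to 0.80 on water, so single livers of every fed group were high or low. Neutrophil markers were lower in 7 of 7 cases, with a median of -0.16 and none with an unadjusted p under 0.05. In the authors' deposited table the median was -0.06, and leaving out 1 mouse gave values from -0.27 (without fructose mouse 3) to -0.05 (without fructose mouse 4). S100a8 and S100a9, which encode calprotectin, differed by -0.54 ± 0.78 and -0.57 ± 0.79. Within slides 1, 2 and 3 S100a8 differed by 0.39, -0.85 and -1.15. S100a9 differed by 0.53, -0.99 and -1.27, so both changed sign between slides. The list median was -0.01, -0.07 and -0.26 within these slides. The neutrophil marker Ngp was not kept by the filter on dim probes.

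**Figure D5:**
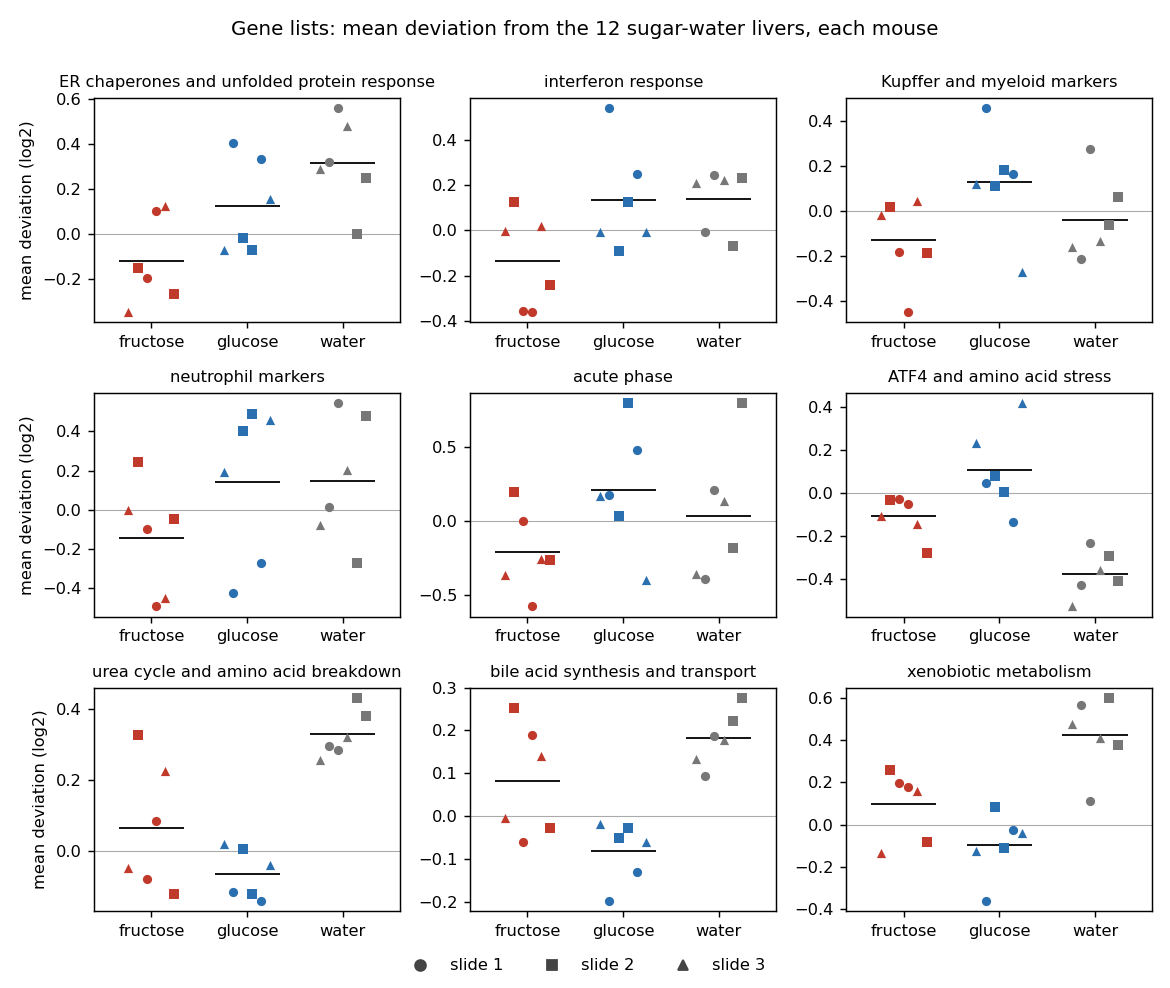
Mean deviation of 9 gene lists (log2) in each fed mouse from the average of the 12 sugar-water livers, with fructose, glucose and water groups of 6 mice. Symbols give the array slide and bars the group means. In the upper and middle rows the fructose means lie below the glucose means, and in the lower row above them. The fructose and glucose groups overlap in every panel.

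The mice were killed at 1 time of day. Of 16 clock genes 8 were higher and 8 lower with fructose, with a median of 0.02. Nr1d1, which encodes the repressor REV-ERB alpha, lay between -1.50 and -0.38 with fructose and between -2.10 and -1.16 with glucose, a difference of 0.77 ± 0.23 (adjusted p = 0.474). Nr1d1 rose with fructose against water by 1.20 (adjusted p = 0.0144), and its difference with glucose was 0.43 (adjusted p = 0.497). Ciart, a repressor of the same loop, differed by 0.73 ± 0.21, and Per2 by -0.33 ± 0.14. Of 13 cell cycle genes 12 were higher with fructose, with a median of 0.13. Pcna, the replication clamp, differed by 0.26 ± 0.08, Birc5 by 0.32 ± 0.13 and Cdk1 by 0.63 (from -0.07 to 1.33). The cell cycle median was -0.51 within slide 1, 0.03 within slide 2 and 0.91 within slide 3, so its sign changed between slides.

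Among genes that answer to insulin and growth hormone, 8 of 13 were higher and 5 lower. Igf1 differed by 0.19 ± 0.07, but its 3 probes ran from -0.37 to 0.19. Igfbp1, which insulin represses, differed by 0.00694 with an interval from -0.98 to 0.99, too wide to say whether it differed. Angptl8, which insulin and feeding induce, differed by 0.13 (from -0.59 to 0.85). Apoa4, an apolipoprotein of liver and gut, lay between 6.51 and 7.23 with fructose and between 5.67 and 6.69 with glucose, a difference of 0.67 ± 0.22 (adjusted p = 0.49). Apoa4 rose with fructose against water by 1.38 (adjusted p = 0.00433), and its difference with glucose was 0.71 (adjusted p = 0.159). In the lists of liver hormones (4 higher, 10 lower of 14), glucocorticoid targets (6 and 5 of 11), heat shock proteins (3 and 10 of 13), urate and organic ion transporters (6 and 3 of 9), and glyoxylate handling (3 and 4 of 7) no gene had an unadjusted p under 0.05. NRF2 targets had 4 higher and 8 lower of 12, with Gsr, the glutathione reductase, at 0.20 ± 0.08.

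No marker of the other cell types passed the test between the sugars. Hepatocyte markers had 3 higher and 7 lower of 10, with a median of -0.06 that turned to 0.03 with quantile normalization and to 0.00926 in the authors' table. An unadjusted p under 0.05 was reached by 1 higher (10%) and 2 lower (20%), beside 3.93% and 3.87% of all genes. The higher one was Cyp3a11 (0.41). Alb, the albumin gene, was the only one of the 10 without overlap, beside 0.250% of all genes on that side. It was lower in all 6 fructose livers than in any glucose liver, by 0.15 ± 0.05 (adjusted p = 0.503). It is among the brightest genes, and of 319 genes with a mean level above 8 on the log2 scale 205 were lower with fructose, with a median of -0.05 (a split made after the values were seen). Periportal markers had 7 of 11 higher with a median of 0.11, and 4 higher (36.4%) and 1 lower had an unadjusted p under 0.05, beside 3.93% and 3.87% of all genes. Without fructose mouse 2 that median was 0.05. Their summed level (log2) ran from 10.67 to 10.96 with fructose and from 10.64 to 10.86 with glucose. Pericentral markers had 7 of 11 higher with a median of 0.06, and 3 (27.3%) had an unadjusted p under 0.05, all higher. Without fructose mouse 2 that median was -0.02, and without fructose mouse 3 it was 0.18. Their summed level ran from 9.98 to 10.24 with fructose and from 10.05 to 10.25 with glucose, so both zonal lists overlapped between the sugars. Among pericentral markers was the glutamate transporter gene Slc1a2 (0.25 ± 0.08). Medians were 0.07 for 11 sinusoidal endothelial markers, -0.01 for 12 stellate cell markers, -0.08 for 8 lymphocyte markers, -0.05 for 8 cholangiocyte markers and -0.02 for 7 red cell markers. They were -0.0025 for 5 pancreatic acinar markers, 0.02 for 7 adipocyte markers, and 0.05 for 5 skeletal muscle markers. The median of 5 intestinal markers, which include Apoa4, was 0.27. It was -0.05 with normexp background and 0.05 in the authors' deposited table, and ran from 0.10 (without glucose mouse 3) to 0.53 (without glucose mouse 4). Adipoq was above background in none of the 12 livers, and Cpa1, Prss2, Acta1, Ckm, Lct and Muc2 were not kept by the filter on dim probes. The part of other cell types in the results above was not tested.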

How the data were processed

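The spot intensities deposited by the authors came from 1-colour Cy3 arrays extracted with Agilent Feature Extraction 10.10.1.1, per the file headers. The processed intensity had been background-subtracted within each array, and probe coordinates are on mm9. The log2 values in the authors' deposited series table, whose normalization is not given in the sources used here, served as an alternative. Over its 35967 probes each column correlated at 0.999853 or more with the log2 median spot signal of its own array. That signal is not the processed intensity used here.

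Processed intensities were scaled by the 75th percentile of each array and taken to log2. A probe was kept if well above background on 6 or more of 24 arrays (36229 of 56605), and the brightest kept probe stood for its gene, giving 23966 genes. Array names were updated through RefSeq tables (15655 by accession, 1736 by symbol, 103 by synonym), and 6472 kept the array's name. All 4 groups were fitted together with limma 3.58.1 in R 4.3.3, with Benjamini-Hochberg adjustment and a threshold of 0.05. Of the 56605 probes before this filter, between 33067 and 36272 were above background in each of the 12 livers. The number of arrays limits the precision. The fit was checked on simulated data.

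The text names the 12 genes with the lowest p in each direction, up to 3 members of each of 44 lists and a panel of 30 genes. A few further panel genes are not reported here. Cyp26b1, Saa1, Hspa5, Hsp90b1, Pdia6, Creld2, Calr, Canx, Dnajc3, Isg15, Ifit1, Asns, Chac1, Trib3, Vldlr, Mthfd2, Atf4, Ces2a, Acot2 and Acot3 were added after their values were seen. The members and lists were chosen with earlier results of these data known. Alternatives covered background, normalization, filter, probe choice, weights, slide, replicate number and leaving out each mouse.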

Additional observations from a re-analysis of the deposited data

Results flagged for a closer look

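In 14 of 278 groups of 6 mice checked, 1 mouse lay far from the other 5 relative to the range of its group. Chance alone marks about 1 in 20 groups. No explanation was tested.

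Glucose mouse 1 recurred. It was the highest of its group for Got1 (5.15, next 4.77), Psph (2.26, next 2.00) and Gbe1 (5.99, next 5.71), and for the mean deviation of the serine and one-carbon list (0.487, next 0.14). It was the lowest for Ccar2 (-0.785, next -0.605). Without it the difference between the sugars was 0.71 for Got1, -0.33 for Psph, -0.16 for Gbe1, -0.31 for Ccar2 and -0.16 for the mean of the serine list.

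Fructose mouse 4 was lowest for Timm22 (2.44) and Cyp2c55 (-1.65) and highest for Disp1 (-3.83). Without it the differences were 0.20, 1.11 and -0.52. Glucose mouse 2 was lowest for Cyp2c55 (-2.12), and without it that difference was 0.66. Glucose mouse 6 was lowest for Timd4 (-1.41), which differed by -0.41 without it. Glucose mouse 4 was highest for Birc5 (0.319), and glucose mouse 3 lowest for Thrsp (8.92). Without them the differences were 0.40 and -0.29. Fructose mouse 6 was highest for Txnip (4.91) and fructose mouse 2 for Pdk4 (1.33, next -0.23). Without these mice the differences went from 0.16 to 0.02 for Txnip and from 0.36 to 0.07 for Pdk4.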

How the results depend on the processing

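The count of genes called between the sugars was 0 and stayed 0 with the 12 sugar arrays alone, slide as a block, within each slide, quantile normalization, median scaling and the authors' table. It was 4 with normexp background (Csrp2, Gnat2, Tle3, Cox6a2), 1 with no filter on dim probes (Acbd7), 1 with a strict filter (Csrp2), 2 with the mean of a gene's probes (Ptpn3, Csrp2), 6 with array weights (Csrp2, Gnat2, Stamos, Gm8883, Ptpn3, Tle3) and 2 with a trended and robust spread (Csrp2, Gnat2). Leaving out each mouse in turn gave 0 to 3, with 1 gene (Tle3) without fructose mouse 2 and 3 genes (Stamos, Csrp2, Gnat2) without glucose mouse 3. With the replicate number as a block 0 genes were called (lowest adjusted p 0.0541). Deviations of same-numbered mice from their group means had a mean correlation of 0.06, above 0.1 in 2 of 6 pairs, and mice of different number one of -0.01. Of the 12 mice 7 correlated best with their own number among 6 candidates in the other group. A mutual best match counts for both of its mice, and the count was not tested against random matching. This hint of a link comes from the data and not from the design. Numbers were not treated as pairs in the main fit, and what links such mice was not tested. The cause of these changes was not tested.

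Among the 125 named genes, 8 with an interval that excluded 0 changed sign under an alternative. Within slide 3 the difference was 0.0949 for Adgre1, 0.0962 for Oas1a, 0.0329 for Timd4 and 0.0473 for Fgg. Within slide 2 it was -0.0346 for Ciart, -0.0778 for Birc5 and 0.0184 for Psat1, and with the mean of its probes Igf1 gave -0.0825. A further 61 sign changes concerned values whose main interval crossed 0.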
